A study of Mus musculus with 10 samples.

Results

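Mouse chromosome 14 carried 641 of the 18193 genes measured under 1 gene symbol on the arrays, placed by the RefSeq gene positions of the assembly GRCm38.p6. Where a gene had several probe sets, the one brightest on average across the 10 arrays stood for it. The 274 genes whose 10-array mean reached 7 (log2) are called bright here, and the other 367 lay under 7. The chromosome was chosen by its low median in the arrays titled iPS-derived NSC, so every comparison with those arrays is a description without a test. The comparison of the other groups, titled iPS and brain NSC, did not enter the choice and was tested. Of the 641 genes, 572 were protein coding and 59 were annotated as long non-coding RNAs.

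The titles and other labels describe 4 of the 10 arrays as RNA from neural stem cells (NSC) of adult mouse brain. They describe 3 as RNA from induced pluripotent stem (iPS) cells made of such NSC with a pMX retroviral vector for mouse Oct4. The last 3 are titled as NSC differentiated out of those iPS cells. The markers below go against the titles of both derived groups. The brain NSC came from mice carrying the Oct4-eGFP reporter (OG2) and the Rosa26 neo/lacZ marker, crossed with ICR females, and received no vector. Per the labels, both other groups descend from cells of this cross and share the reporter and the marker. Their labels name Oct4 as the reprogramming factor. Cells labelled iPS grew on irradiated mouse embryonic fibroblasts (MEF) with leukaemia inhibitory factor (LIF), from mechanically picked colonies that were expanded. Age beyond the word adult, the number of animals and the number of clones are not given in the sources used here.

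The marker genes contradict the titles of both derived groups. Pou5f1, which encodes Oct4, averaged 13.29 in the arrays titled iPS-derived NSC, against 4.67 in those titled iPS and 4.55 in brain NSC. Over the 6 pluripotency markers the array means lay at 12.004 to 12.113 in the arrays titled iPS-derived NSC, at 4.58 to 4.63 in those titled iPS and at 4.62 to 4.76 in brain NSC. The 5 measured markers of neural stem cells ran the other way, at 6.20 to 6.33, 12.27 to 12.38 and 12.13 to 12.43. The titles are kept as deposited, and each direction below follows titles that these markers go against. Without the 6 arrays of these titles no comparison is left.

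A chromosome is not a functional unit. Neighbouring genes can share chromatin domains, replication timing and, in clusters such as the granzymes, a common origin by duplication, while most genes of a chromosome are regulated one by one. Chromosome 14 of the mouse holds, among others, the receptor genes Ednrb and Fzd3, the signals Wnt5a and Bmp4, the transcription factors Otx2, Klf5 and Sall2, the tumour suppressor Rb1, and the granzyme and mast cell protease cluster.

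Promoters are shown for 3 genes because they mark the span of its bright genes in the comparison of the arrays titled iPS-derived NSC with brain NSC. Ednrb had the lowest difference, Fam25c the highest among bright genes with an entry in the promoter table, and Chchd1 lay nearest the chromosome median. Klf5, the gene with the highest difference of all bright genes, is named only. Each sequence holds the 250 bases before the gene start, from RefSeq on GRCm38.p6, written 5′ to 3′ on the strand of the gene, and the capitals mark the CpG dinucleotides.
Ednrb promoter, chr14:103843702-103843951, minus strand: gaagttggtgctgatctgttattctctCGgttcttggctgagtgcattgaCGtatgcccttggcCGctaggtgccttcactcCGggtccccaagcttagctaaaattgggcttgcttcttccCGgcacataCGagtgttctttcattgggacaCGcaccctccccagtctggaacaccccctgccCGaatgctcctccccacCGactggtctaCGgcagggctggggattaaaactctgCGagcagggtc
Fam25c promoter, chr14:34355394-34355643, minus strand: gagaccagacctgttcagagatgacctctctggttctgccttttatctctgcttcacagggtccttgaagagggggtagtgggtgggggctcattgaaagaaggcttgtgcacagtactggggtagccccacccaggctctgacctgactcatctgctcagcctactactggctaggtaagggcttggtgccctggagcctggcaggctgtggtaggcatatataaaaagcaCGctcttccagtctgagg
Chchd1 promoter, chr14:20702777-20703026, plus strand: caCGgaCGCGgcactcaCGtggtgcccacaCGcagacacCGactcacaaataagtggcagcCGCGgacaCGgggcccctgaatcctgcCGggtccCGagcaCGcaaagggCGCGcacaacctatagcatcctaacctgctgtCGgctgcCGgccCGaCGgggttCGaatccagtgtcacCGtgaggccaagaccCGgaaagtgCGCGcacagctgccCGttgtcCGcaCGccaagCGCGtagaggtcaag
The counts of CpG were 11 for Ednrb, 1 for Fam25c and 28 for Chchd1, with GC contents of 56.8%, 55.2% and 65.6%.

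The bright genes of chromosome 14 were lower in the arrays titled iPS-derived NSC than in brain NSC by a median of 0.70 on the log2 scale (-0.697, 274 genes). The bright genes of the other autosomes had a median of -0.0438 in this comparison (8074 genes). Chromosome 14 had the lowest median of the 19 autosomes. The other 18 ranged from -0.329 on chromosome 1 to 0.314 on chromosome 8, and chromosome X stood at -0.561. Against the arrays titled iPS, chromosome 14 had a median of -0.741, beside -0.109 over the other autosomes. These comparisons share the arrays titled iPS-derived NSC, so their medians are not independent. Between the arrays titled iPS and brain NSC the chromosome 14 median was 0.0115, against 0.0485 over the other autosomes.

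The shift was alike in each of the 3 arrays titled iPS-derived NSC. After the median of the other autosomes was taken off, their chromosome 14 medians relative to brain NSC were -0.698, -0.665 and -0.677, with a mean of -0.680 ± 0.0165 (SD, n = 3). The arrays titled iPS stood at -0.0452, -0.0587 and -0.0267 (mean -0.0435 ± 0.0161, n = 3). The 4 brain NSC arrays, each set against the mean of the other brain NSC arrays, stood at 0.0353, 0.0127, 0.0139 and -0.0736 (mean -0.0029 ± 0.0482, n = 4). The 3 low arrays did not overlap with the other 7. On the same scale chromosome X lay between -0.540 and -0.451 in the arrays titled iPS-derived NSC, and chromosome 1 between -0.304 and -0.276, so chromosome 14 lay below both in each of the 3 arrays.

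**Figure D1:**
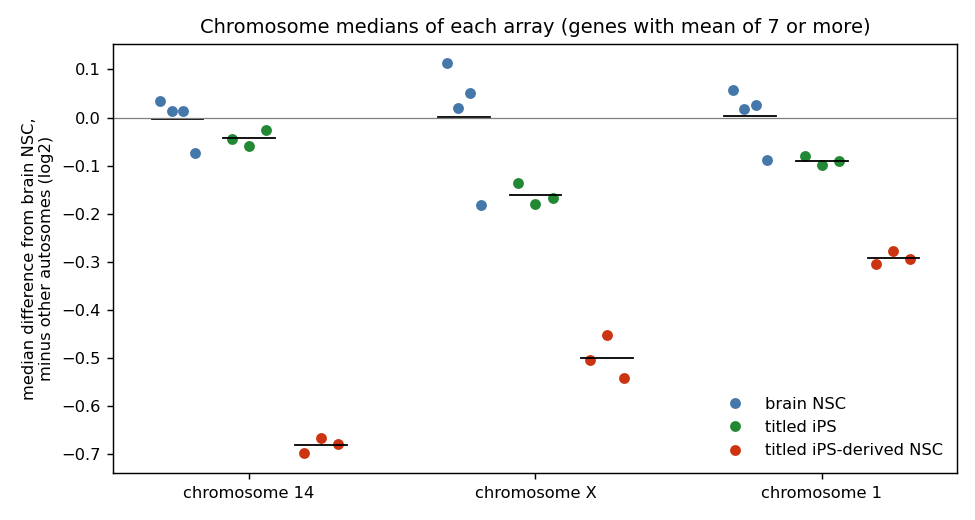
Each point is the median of 1 array over the bright genes of a chromosome, and bars are group means. Values are differences from the brain NSC mean with the same median over the other autosomes taken off (log2). Each brain NSC array was set against the mean of the other brain NSC arrays. For chromosome 14 the arrays titled iPS-derived NSC sit between -0.698 and -0.665, and the other 7 between -0.0736 and 0.0353.

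The low median came from a broad displacement of the distribution and not from its lower end. At the 5th percentile the difference was -3.04 on chromosome 14 and -3.05 on the other autosomes. At the 25th percentile it was -1.52 against -0.860, at the 75th 0.0292 against 0.559 and at the 95th 1.26 against 1.59. The gap was wider at the 25th percentile and the median than at either end and near 0 at the 5th percentile. Of the 274 bright genes, 202 (73.7%) were below 0, where 53% of all bright genes of the genome were. At least 2-fold lower were 111 of them (40.5%), against 23.3% of all bright genes, and at least 2-fold higher 21 (7.66%), against 12.4%. With the mean of all probe sets of a gene in place of the brightest, the count of 111 was 63. In 174 of the 274 (63.5%; 38.6% of all bright genes) all 3 arrays titled iPS-derived NSC were below the other 7 arrays, and in 46 (16.8%; 29.4%) all 3 were above. Against the arrays titled iPS, 201 bright genes (73.4%; 55.8% of all bright genes) were below 0, 112 (40.9%; 24.5%) at least 2-fold lower and 22 (8.03%; 11.1%) at least 2-fold higher. The choice of the chromosome used these values, so the shares describe it and test nothing.

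**Figure D2:**
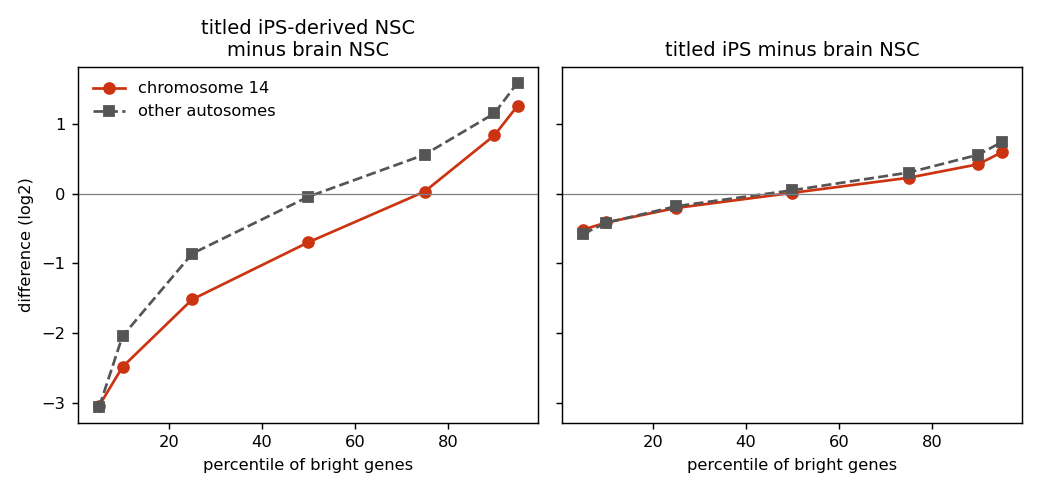
Differences (log2) at the percentiles of the bright genes are plotted for chromosome 14 and for the other autosomes. For the arrays titled iPS-derived NSC against brain NSC the line of chromosome 14 lies lower at the median (-0.697 against -0.0438) and meets the other at the 5th percentile, while for the arrays titled iPS against brain NSC the medians are 0.0115 and 0.0485.

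Genes of low brightness had medians above 0 that lay only a little under those of the other autosomes. RMA compresses differences of dim genes, so a decrease in them would be hard to see. Of the 367 genes under 7, 26 (7.08%; 5.65% of all such genes) were at least 2-fold lower in the arrays titled iPS-derived NSC than in brain NSC and 33 (8.99%; 10.4%) at least 2-fold higher, and against the arrays titled iPS 22 (5.99%; 5.38%) and 33 (8.99%; 10.6%). In the 207 chromosome 14 genes with a 10-array mean under 5 the median difference between the arrays titled iPS-derived NSC and brain NSC was 0.127, against 0.163 on the other autosomes, and in the 160 genes from 5 to 7 it was 0.174 against 0.250. From 7 to 8 it was -0.824 against -0.107, from 8 to 9 -0.885 against -0.117 and from 9 to 10 -0.815 against -0.0149. It was smaller in the 32 genes from 10 to 11 (-0.692 against 0.0101) and in the 40 genes of 11 or more (-0.506 against 0.0403). The 3 highest differences of the whole chromosome lay under the limit, in genes that were low on the other 7 arrays: Ccnb1ip1 at 5.82, Anxa7, a calcium-dependent membrane-binding annexin, at 5.65, and Rnf17 at 5.51, all named after their values were seen. Anxa7 read 10.974, 10.997 and 10.978 in the arrays titled iPS-derived NSC, 4.50, 4.58 and 4.42 in those titled iPS and 5.28, 5.49, 5.39 and 5.18 in brain NSC. Over all 641 genes with no brightness minimum the median turned to 0.0441 (0.142 on the other autosomes), and against the arrays titled iPS to 0.0288 (0.128). The sign of the median therefore belongs to the bright genes. The limit itself parted near neighbours: Kif13b, a kinesin motor, lay just inside at a mean of 7.001, and Lrch1, a leucine-rich repeat protein, just outside at 6.997, with differences of 0.28 and -0.92.

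The 10-array mean gives more weight to the 7 arrays with high neural markers, so a gene bright only in the other 3 could be left out. With the highest of the 3 group means as the measure, 313 genes of chromosome 14 reached 7 and their median was -0.647, beside 0.000504 over the other autosomes. This alternative was chosen after seeing the data. The markers of feeder fibroblasts were highest in the arrays titled iPS-derived NSC, although the labels put the cells labelled iPS on MEF. Summed over 8 markers, their log2 level was 48.8 to 57.1 in the arrays titled iPS-derived NSC, 40.7 to 41.6 in those titled iPS and 40.5 to 41.2 in brain NSC. On average 2 of the 8 (Acta2 and Col1a2) reached 7 in the arrays titled iPS-derived NSC and 1 (Acta2) in each other group. The markers of microglia, neurons and astrocytes had array means of 5.36 to 5.56, 5.47 to 5.53 and 5.42 to 5.49 in the arrays titled iPS-derived NSC and of 4.86 to 5.09, 6.07 to 6.20 and 5.69 to 5.89 in brain NSC. Their part in the chromosome 14 values was not tested. In bulk RNA of this kind, fewer cells of a type and less RNA per cell cannot be told apart.

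Along the chromosome the bright genes were cut into 12 blocks of 22 or 23 consecutive genes. In the arrays titled iPS-derived NSC against brain NSC, 11 of the 12 block medians were below 0. The exception was the fourth block, from Capn7 to Ero1a, at 0.0403, where 7 genes were at least 2-fold lower and 5 at least 2-fold higher. The third block, from Dennd6a to Bap1, was also near 0 at -0.172. The lowest medians lay in the block from Zmym2 to Wdfy2 (-1.17) and in the last block, from Obi1 to Tmtc4 (-1.51), where 20 of 22 genes were below 0 and 13 at least 2-fold lower. The blocks from Ctsb to Chmp7 (-1.05), from Nufip1 to Ednrb (-1.15) and from Psmc6 to Pnp (-0.949) were the others under -0.9.

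The remaining blocks lay between. The block from Abhd6 to Usp54, at the start of the chromosome, had a median of -0.562 and that from Sec24c to Slmap one of -0.648. The block from Mettl17 to 1700123O20Rik stood at -0.570, that from Bcl2l2 to Zmym5 at -0.431 and that from Rhobtb2 to Gpalpp1 at -0.857. Each of the 5 blocks from Zmym2 to the end was lower than 6 of the first 7. On the other autosomes, 352 blocks of 22 to 24 bright genes ranged from -1.77, on chromosome 10, to 1.01, with quartiles of -0.329 and 0.143, and 10 of them (2.84%) lay at or under -0.9, where 5 of the 12 on chromosome 14 did. Against the arrays titled iPS the same count was 5 of 12, beside 8 of 352 (2.27%) elsewhere. Between the arrays titled iPS and brain NSC the 12 medians stayed between -0.0679 and 0.134.

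**Figure D3:**
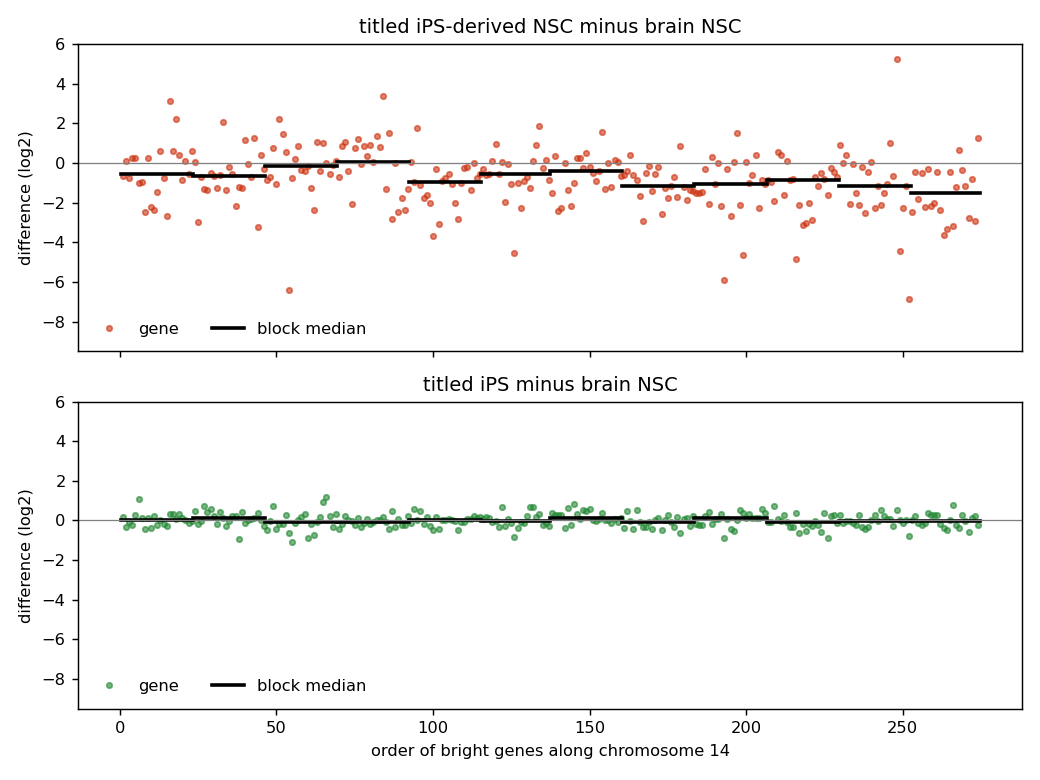
Points are the 274 bright genes in their order along chromosome 14, with the difference (log2) from brain NSC on the vertical axis, and black bars are medians of 12 blocks. In the arrays titled iPS-derived NSC (upper panel) the block medians run from 0.0403 down to -1.51 in the last block, and in those titled iPS (lower panel) from -0.0679 to 0.134.

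The longest unbroken run of bright genes below 0 held 19 genes, from Klf12 to Stk24, in the arrays titled iPS-derived NSC against brain NSC. It contained both strongly and weakly displaced genes, such as Ednrb at -6.87 and the small GTPase Rap2a at -3.32, but also Tgds at -0.29 and the RNA-binding protein Rbm26 at -0.44. The longest such run on another autosome held 18 genes, on chromosome 10. A run of 7 genes from Rnaseh2b to Mtmr9 was at least 2-fold lower throughout, at -1.89 to -1.22, and chromosome 6 held a run of equal length. A run of 7 genes above 0 went from Ncoa4, a receptor of ferritin autophagy, to Fam25c, and chromosome 7 held one of 20.

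Promoters rich in CpG and promoters poor in it lay on the same side. A promoter was called CpG-rich where GC was at least 50% and the observed over expected CpG at least 0.6, in the 250 bases of the first listed start. Of 217 bright chromosome 14 genes with a listed promoter, 163 (75.1%) were CpG-rich and had a median difference of -0.621 between the arrays titled iPS-derived NSC and brain NSC, against -0.0266 for 4820 such genes elsewhere on the autosomes. The 54 CpG-poor ones had a median of -0.855, against -0.0627 for 1839 elsewhere. By this measure the Chchd1 promoter printed above was CpG-rich, with an observed over expected ratio of 1.05, while Ednrb (0.550) and Fam25c (0.0531) were CpG-poor. The GC box GGGCGG, searched on both strands, occurred in 59.9% of the promoters of bright chromosome 14 genes, in 45.1% of those of all chromosome 14 genes on the arrays and in 32.9% of all 27025 promoters listed. The letters TATAAA, searched likewise, occurred in 5.53%, 9.05% and 13.0%. These sets differ in brightness and in presence on the arrays, and bright genes of other autosomes were not counted. The shares therefore show no trait of chromosome 14. CpG-rich promoters made up 75.1% of the bright genes with a promoter on chromosome 14 and 72.4% on the other autosomes. None of the 3 printed promoters holds GGGCGG.

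The 8 bright genes with the lowest differences included 3 receptors (Ednrb, Fzd3 and Gfra2) and the ligand Wnt5a. Ednrb, the endothelin receptor that neural crest cells need, read 3.28, 3.53 and 3.63 in the arrays titled iPS-derived NSC, 9.76, 9.35 and 9.60 in those titled iPS, and 10.53, 10.37, 10.45 and 10.06 in brain NSC. That was 117-fold lower than in brain NSC (a difference of -6.87). Wnt5a, a secreted ligand of non-canonical Wnt signalling, read 3.58, 3.96 and 3.45, against 9.59, 9.35 and 9.48 and against 10.22, 10.16, 10.08 and 9.93 (-6.43). In both genes the 3 low arrays lay near the bottom of the scale and did not overlap with the others, so the folds are not exact.

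Fzd3, a Wnt receptor of axon guidance, read 5.04, 5.74 and 4.98 in the arrays titled iPS-derived NSC, 10.36, 10.26 and 10.28 in those titled iPS, and 11.24, 11.22, 11.24 and 11.04 in brain NSC (-5.93). Next came the GDNF family receptor Gfra2 at -4.83, Dpysl2, a cytoskeletal protein of growing axons, at -4.63, the zinc finger factor Sall2 at -4.56, the repressor Klf12 at -4.45 and Cgrrf1, a ring finger protein, at -3.68. For Gfra2 and Cgrrf1 another probe set of the gene had the opposite sign. Such a probe set existed for 11 of the 39 genes named here by rule that differed at least 2-fold in this comparison. The others were Gnpnat1, Rb1, Mbnl2, Pcca, Gmfb, Bmpr1a, Bcl2l2, Ctsb and Chmp7. Probe sets of the same sign could also differ widely. Those nearest 0 stood at -0.58 for Wnt5a, -0.33 for Fzd3, -0.12 for Dpysl2, -0.72 for Klf12 and -3.12 for Ednrb. The large differences of these genes are thus those of their brightest probe sets.

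Against the grain of the chromosome, 21 bright genes were at least 2-fold higher in the arrays titled iPS-derived NSC. Klf5, a Krüppel-like factor that helps keep embryonic stem cells undifferentiated, read 11.76, 11.43 and 11.96 there, 6.99, 7.05 and 6.97 in the arrays titled iPS, and 6.06, 6.51, 6.39 and 7.04 in brain NSC (5.22 higher than brain NSC, 37.2-fold). Fam25c read 9.14, 9.27 and 9.56, against 5.95, 6.15 and 6.22 and against 5.85, 5.83, 6.07 and 5.98 (3.39). Nid2, a basement membrane protein, read 10.71, 10.58 and 10.57, against 8.02, 7.65 and 7.80 and against 7.30, 7.64, 7.40 and 7.62 (3.13). The 3 high arrays did not overlap with the other 7 in any of these genes. Smaller differences were those of Il17rd, an inhibitor of FGF signalling (2.23), the potassium channel Kcnk5 (2.19) and the histone acetyltransferase Kat6b (2.09). The LIM protein Ajuba (1.86) and Gnpnat1, an enzyme of UDP-GlcNAc synthesis (1.76), followed. Another probe set of Klf5 stood at 0.47 and another of Kat6b at 0.11, while those of Il17rd and Kcnk5 stood at 1.295 and 1.44.

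The 4 genes nearest the chromosome median included members of the mitochondrial ribosome. Chchd1, a small mitochondrial ribosome protein, read 11.15, 11.26 and 11.18 in the arrays titled iPS-derived NSC, 11.86, 11.89 and 11.88 in those titled iPS and 11.98, 11.96, 11.89 and 11.75 in brain NSC (1.62-fold lower than brain NSC). Mrpl52, of the mitochondrial ribosome, read 10.55, 10.70 and 10.72, against 11.59, 11.46 and 11.64 and against 11.51, 11.28, 11.42 and 11.19. In both the 3 arrays were below the other 7. Gpalpp1 and Zmiz1, a coactivator with a SUMO ligase domain, were the other 2 of the 4 genes nearest the median, and Zmiz1 differed by -0.70. The probe sets of Zmiz1 ranged from -2.14 to 0.52.

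**Figure D4:**
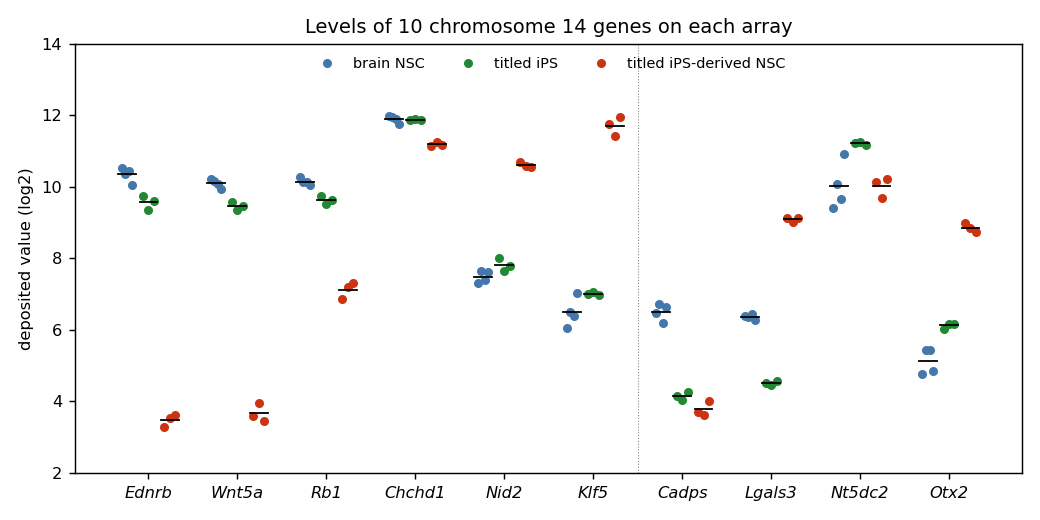
Deposited log2 values of 10 genes are plotted for each array, with bars at group means. Left of the dotted line are genes from the span of the comparison with brain NSC (Ednrb at -6.87 to Klf5 at 5.22), and right of it are 4 genes called between the arrays titled iPS and brain NSC.

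Gene lists of chromosome 14 differed in how far they shared the shift of the arrays titled iPS-derived NSC against brain NSC. Over all 641 genes the median was 0.0441 and over all 18193 genes 0.134, so a list made mostly of dim genes has a median near 0. A list made mostly of bright genes is to be read beside the bright genes of the chromosome, with a median of -0.697, 73.7% below 0, 40.5% at least 2-fold lower and 7.66% higher, and beside all bright genes, with a median of -0.0682 and 53%, 23.3% and 12.4%. The dim members of a list are to be read beside the genes under 7. Of these, 7.08% were at least 2-fold lower and 8.99% higher on the chromosome, and 5.65% and 10.4% over all genes under 7. The lists are not independent of the choice of the chromosome, and they carry no test in this comparison. They held 173 distinct genes.

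Cell cycle genes had a median of -1.005 over 15 members, 14 of them bright, with 12 members below 0, 8 at least 2-fold lower and 1 at least 2-fold higher. Rb1, the retinoblastoma protein that restrains entry into S phase, read 6.86, 7.21 and 7.32 in the arrays titled iPS-derived NSC, 9.74, 9.52 and 9.65 in those titled iPS and 10.27, 10.14, 10.12 and 10.06 in brain NSC (-3.02). Pbk, a mitotic kinase, read 9.95, 10.07 and 9.88, against 12.22, 12.14 and 12.24 and against 12.69, 12.69, 12.62 and 12.51 (-2.66). No array of the low group reached the others in either gene. The formin Diaph3 (-2.30), Cdkn3, a phosphatase of cyclin-dependent kinases (-1.77), the centrosomal Mzt1 (-1.52) and Cenpj (-1.20), the kinase cofactor Bora (-1.07) and Cdca2 (-1.005) were lower too. Wapl, which releases cohesin from chromosomes, was the 1 higher member at 1.52, followed by Haus4 of the augmin complex at 0.88, and Esco2, a cohesin acetyltransferase, stood at 0.03.

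Genes of mitochondria and metabolism had a median of -0.571 over 20 members, with 8 at least 2-fold lower and 1 higher. Pcca, a subunit of propionyl-CoA carboxylase, read 7.13, 6.75 and 7.06 in the arrays titled iPS-derived NSC, 10.21, 10.03 and 10.21 in those titled iPS and 9.84, 10.05, 9.83 and 9.95 in brain NSC (-2.94). Clybl, a mitochondrial enzyme that breaks down citramalyl-CoA, read 5.75, 5.38 and 5.40, against 7.96, 7.55 and 7.71 and against 8.28, 8.70, 8.15 and 8.05 (-2.79). Both genes lie in the last block, and in both the 3 arrays titled iPS-derived NSC were below the other 7. The iron carrier Slc25a37 (-2.25), the sulfoxide reductase Msra (-2.09), Fdft1 of cholesterol synthesis (-1.51), the peptidase Mipep (-1.25), Sucla2 of the citric acid cycle (-1.18) and Pck2 (-1.02) were the others at least 2-fold lower. The very bright members stood near 0: the pentose phosphate enzyme Tkt at -0.35, the outer membrane channel Vdac2 at -0.19 and the import protein Timm23 at 0.34. Ppif, the cyclophilin of mitochondria, was at 1.26.

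Chromatin and RNA genes, all 28 of them bright, had a smaller median of -0.195, with 5 at least 2-fold lower and 2 higher. Mbnl2, a splicing regulator, was lowest at -3.63 and the topoisomerase Top2b next at -2.37, with 8.21, 8.50 and 8.18 in the arrays titled iPS-derived NSC, 10.88, 10.90 and 10.89 in those titled iPS and 10.70, 10.65, 10.71 and 10.62 in brain NSC. The integrator subunit Ints6 (-1.38), Tdrd3 (-1.18) and the m6A methyltransferase Mettl3 (-1.06) were the other 3. The exosome nuclease Dis3 (1.02) and the nucleolar protein Gnl3 (1.07) were higher. The brightest members, Hnrnpc (0.11) and Pabpn1 (0.36), which package and polyadenylate RNA, differed little.

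Members of large protein complexes were set beside members of the same families on other chromosomes. The 3 mitochondrial ribosome genes with Mrpl or Mrps symbols on chromosome 14 had a median of -0.690 (Mrpl57 -0.85, Mrpl52 -0.69, Mrps16 0.11). The 73 genes with such symbols elsewhere had a median of 0.400. Chchd1 is not among them, since its symbol differs. The 4 bright proteasome genes of chromosome 14 had a median of -0.114, against 0.304 for 40 elsewhere. They were the regulatory subunits Psme1 (-0.28), Psmc6 (0.04) and Psmd6 (0.27) and the catalytic Psmb5 (-0.26), and the dim Psmb11 stood at 0.31. Another probe set of Psmc6 stood at -1.04. Rps24, the 1 cytosolic ribosomal protein gene of the chromosome, was at -0.06, against 0.0918 for the 43 bright ones elsewhere.

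Neural genes, 8 of 25 bright, had a median of 0.0939 over all members and -1.18 over the bright ones. At least 2-fold lower were 7 members, 5 of them bright, and at least 2-fold higher 3, 2 of them bright. Besides Gfra2 and Dpysl2, the low members were Gmfb, a glia maturation factor (-2.02), Fgf14 (-1.62), the calcium channel subunit Cacna2d3 (-1.43), the potassium channel Kcnma1 (-1.20) and the ubiquitin ligase Mycbp2 (-1.15). The high ones were the secreted chaperone Clu (1.49), Tmtc4 (1.26) and the neurofilament gene Nefl. Nefl read 6.97, 6.41 and 7.42 in the arrays titled iPS-derived NSC, 4.01, 3.62 and 3.87 in those titled iPS and 4.34, 4.35, 4.39 and 4.36 in brain NSC (2.57). Nefm, the other neurofilament gene of the list, stood at -0.50. The 4 neuron markers had array means of 5.47 to 5.53 in the arrays titled iPS-derived NSC, under the 6.07 to 6.20 of brain NSC.

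Among developmental signals and receptors, 8 of 17 bright, the medians were 0.110 over all and -1.54 over bright members. At least 2-fold lower were 6, 5 of them bright, and at least 2-fold higher 2, 1 of them bright. The lower ones after Ednrb, Wnt5a and Fzd3 were the receptor Tnfrsf19 (-1.76), the glycoprotein hormone Stc1 (-1.73) and the BMP receptor Bmpr1a (-1.32). The receptor phosphatase Ptprg (-0.99) and the FGF signalling inhibitor Spry2 (-0.53) were also below 0. The ligand Bmp4 went the other way, with 7.01, 6.96 and 7.38 in the arrays titled iPS-derived NSC, 4.23, 4.21 and 4.09 in those titled iPS and 4.27, 3.87, 4.20 and 4.06 in brain NSC (3.02). By the brightest probe sets the ligand was thus higher and its receptor lower in the same arrays. Another probe set of Bmpr1a had the opposite sign, at 0.46 against brain NSC.

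Transcription factors, 9 of 22 bright, had a median of -0.0361 over all and -1.07 over bright members. At least 2-fold lower were 6, 5 of them bright, and at least 2-fold higher 3, 1 of them bright. Below Sall2 and Klf12 followed Sox21, a repressor of neural progenitors (-2.04), the circadian repressor Nr1d2 (-1.48), Zic2 (-1.07) and Hmbox1 (-1.07). Above were Klf5, Otx2 (3.73), a homeobox factor of forebrain and epiblast, and Gata4, a factor of endoderm and heart, at 1.10 with a 10-array mean under 7.

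Cell surface and secreted gene families were mostly dim. Of 9 protocadherin, Slitrk and glypican genes, 2 were bright, and both were at least 2-fold lower: the heparan sulfate proteoglycan Gpc6 (-2.25) and Pcdh9 (-2.11). The dim Pcdh17 was at -1.59 and Pcdh8 at 1.07. None of the 14 granzyme and mast cell protease genes, the 9 of the ribonuclease A family or the 5 olfactory receptors was bright. Their medians were 0.230, 0.146 and 0.0768, and 0, 1 (Rnase4, at 1.14) and 0 of them were 2-fold higher, with none 2-fold lower.

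**Figure D5:**
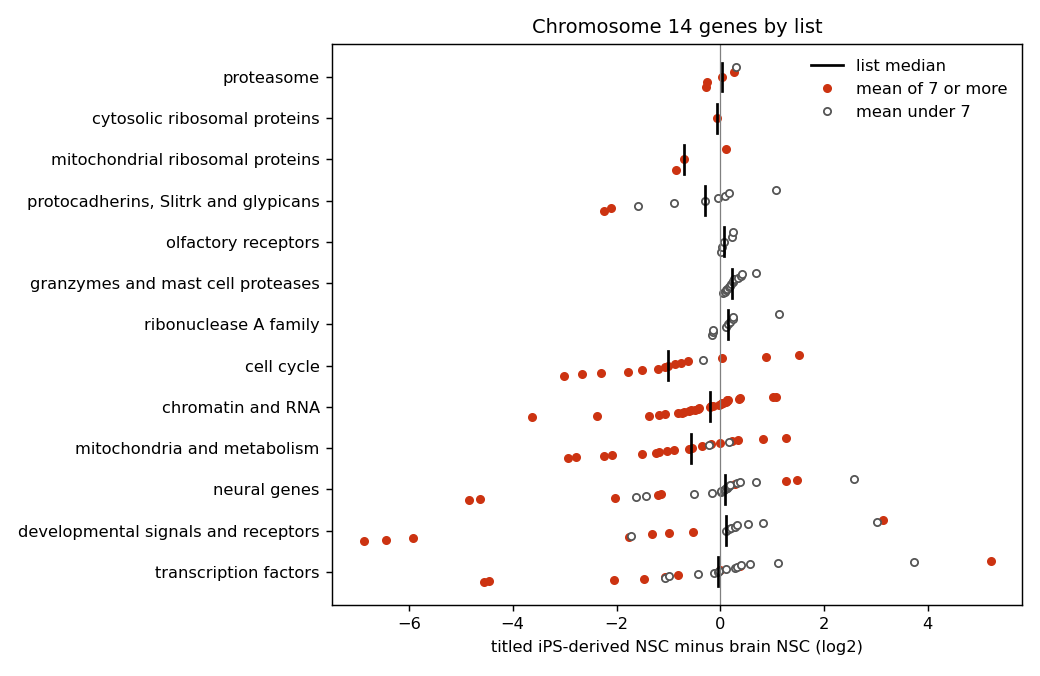
Each point is a gene of chromosome 14, placed by its difference (log2) between the arrays titled iPS-derived NSC and brain NSC, in 13 lists with the list median as a bar. Filled points are bright genes. Cell cycle genes centre at -1.005, and the granzyme and mast cell protease genes, all under 7, at 0.230.

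Between the arrays titled iPS and brain NSC, the comparison the choice did not use, the median of chromosome 14 differed by less than the test could call. The relative median per array (bright chromosome 14 genes minus bright genes of the other autosomes, as deviations from the mean of these 7 arrays) was -0.0225 ± 0.0076 (SD, n = 3) and 0.0152 ± 0.0341 (SD, n = 4). The difference of -0.0376 had p = 0.143 in an exact two-sided permutation test over 35 splits, of which the smallest possible p is 0.0286. By limma with Benjamini-Hochberg adjustment over all 18193 genes, 11 of the 641 genes (1.72%) were called at an adjusted p under 0.05 and at least 2-fold, where 1.84% of all genes were. Of these, 5 were higher in the arrays titled iPS (0.951% of all genes) and 6 lower (0.89%). At an unadjusted limma p under 0.05 were 189 genes (29.5%), against 32.5% of all. Without regard to the test, 1 bright gene was at least 2-fold lower (0.365%; 0.949% of all bright genes) and 2 higher (0.73%; 1.48%), while 129 (47.1%; 45.1%) were below 0. Under 7, 5 genes (1.36%; 0.838% of all such genes) were at least 2-fold lower and 3 (0.817%; 0.482%) higher. The shares of called genes lay near the background. The count of 11 was 7 with the mean of all probe sets, 6 with limma's treat against 1.5-fold and 3 with genes under 7 left out. The lists held 2 of the 11 in the higher direction, Ptprg and Otx2, and 1 in the lower, Cacna2d3, and their medians lay between -0.0917 and 0.215, beside 0.0097 over all chromosome 14 genes and 0.0082 over all genes.

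Among the 6 lower genes, Cadps, which primes dense-core vesicles for release, read 4.16, 4.05 and 4.25 in the arrays titled iPS and 6.47, 6.73, 6.20 and 6.64 in brain NSC. It was 5.11-fold lower (-2.35 ± 0.13 SE, limma adjusted p = 1.62e-07), and in the arrays titled iPS-derived NSC it was low too, at 3.69, 3.63 and 4.02. Lgals3, the galactose-binding lectin galectin-3, read 4.50, 4.46 and 4.58 against 6.39, 6.36, 6.44 and 6.28, a 3.61-fold difference (-1.85 ± 0.08, limma adjusted p = 1.44e-08), and 9.14, 9.03 and 9.13 in the arrays titled iPS-derived NSC. Lgals3 was thus one of the dim genes that were high in the arrays with the lowest chromosome median. Cacna2d3 differed by -1.33 ± 0.14, the unnamed transcript 3830406C13Rik by -1.26 ± 0.13, Spata13, an activator of small GTPases, by -1.18 ± 0.13 and the selenoprotein Selenok of the endoplasmic reticulum by -1.09 ± 0.12. Without _x_at and _s_at probe sets, whose names mark possible binding of several transcripts, Selenok stood at -0.777 and was not called. The 1 probe set of Cadps is an _s_at one, so Cadps had no value in that setting. The groups did not overlap in any of the 6 genes. Other probe sets of 3830406C13Rik and Spata13 included one with the opposite sign.

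Among the 5 higher genes, 9930012K11Rik read 7.23, 7.31 and 7.20 in the arrays titled iPS and 5.54, 5.74, 5.97 and 5.95 in brain NSC (1.44 ± 0.11 SE, limma adjusted p = 2.23e-06). The cytokine gene Il17d read 7.04, 6.34 and 7.17 against 5.53, 5.31, 5.31 and 5.78 (1.37 ± 0.20, limma adjusted p = 0.000441), but with probe sets of these suffixes left out its difference was 0.0052. Nt5dc2, a protein of the nucleotidase family, read 11.23, 11.25 and 11.18 against a wide spread of 9.40, 10.07, 9.67 and 10.94 (1.20 ± 0.27, limma adjusted p = 0.0075), and without brain NSC replicate 1 it stood at 0.994 and was not called. Ptprg differed by 1.06 ± 0.13. It was under 2-fold with the mean of its probe sets (0.506) and with _x_at and _s_at probe sets left out (0.56). Otx2 read 6.04, 6.18 and 6.17 against 4.78, 5.44, 5.44 and 4.84, a difference on the 2-fold limit of the call (1.00 ± 0.16, limma adjusted p = 0.00082), and 8.98, 8.84 and 8.75 in the arrays titled iPS-derived NSC. Leaving out brain NSC replicate 1 or 4 put it at 0.884 or 0.907, and iPS replicate 2 or 3 at 0.975 or 0.98, each without a call.

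Some genes named above for their differences in the arrays titled iPS-derived NSC are given here for the arrays titled iPS against brain NSC. Ednrb stood at -0.78, Wnt5a at -0.63, Fzd3 at -0.89 and Sall2 at -0.86, with limma adjusted p values of 0.0014, 0.0034, 0.0014 and 0.000827 but under the 2-fold limit. Rb1 stood at -0.51 (limma adjusted p = 0.0068) and Pbk at -0.43 (0.0041). Dpysl2 was at 0.39 (0.0333) and Klf12 at 0.02 (0.951). Klf5 was at 0.50 (0.0741) and Nid2 at 0.33 (0.0556). Gfra2 and Cgrrf1, also among the lowest, stood at 0.40 and -0.47. The comparison shares the brain NSC arrays with the one that chose the chromosome and these genes. Their p-values here are therefore no independent test.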

How the data were processed

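The values are log2 expression levels of probe sets as deposited by the authors, who ran RMA, per the submitters' processing notes. The RMA version was not found in the labels. RMA equalises the array distributions, so a shift shared by most genes is largely removed, and it compresses differences of dim genes. Symbols came from the platform annotation (34945 of 45101 probe sets with 1 symbol, 932 with several, 9160 with none, 64 controls left out), and 34741 matched a RefSeq table of GRCm38.p6 by Entrez identifier. It gave gene positions, used here for gene order; the deposited values name no build.

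Groups came from the titles. The fit used limma 3.58.1 under R 4.3.3 (lmFit, eBayes, 3 groups over 10 arrays, 7 residual and 5.95 prior degrees of freedom), two-sided, adjusted by Benjamini-Hochberg over 18193 genes. A gene was called at an adjusted p under 0.05 and at least 2-fold. The script was tested on simulated data. Chromosome medians and figures were made in Python 3.11.15 (numpy 2.4.6, pandas 2.3.3, matplotlib 3.10.9). Nothing in the labels ties replicates to separate cultures or animals, so p-values measure only the spread between these samples, which may be technical. The precision is limited by the number of arrays.

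The rule for naming genes took up to 10 called genes per direction, the 8 lowest, 8 highest and 4 most median bright genes, the 2 most changed and 2 brightest members of each list, the ends of each block and the genes on either side of the brightness limit (89 genes). Other list members were named after their values were seen. The members, lists and rules were chosen with earlier results of these data known. In the lists 10 symbols were not matched, and Epha3 lies on another chromosome. Alternatives varied the probe sets, the brightness limit, the scaling, the test and the arrays.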

Additional observations from a re-analysis of the deposited data

Results flagged for a closer look

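In 92 named genes or values, the 4 brain NSC arrays were checked for 1 array far from the other 3, and 4 were found, about as many as the 1 in 20 that chance gives. In 3830406C13Rik, a gene called between the arrays titled iPS and brain NSC, replicate 4 read 6.92 against 7.40 to 7.49. In Fzd3, replicate 4 read 11.04 against 11.22 to 11.24. In Mrps16, replicate 2 read 11.01 against 10.78 to 10.82. In Gzmn, a granzyme gene near the bottom of the scale, replicate 2 read 3.44.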

How the results depend on the processing

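The median over bright chromosome 14 genes in the arrays titled iPS-derived NSC against brain NSC (-0.697) turned to 0.0441 with no brightness minimum; against the arrays titled iPS (-0.741) it turned to 0.0288. In this order the 2 medians moved to -0.602 and -0.664 with a minimum of 6, to -0.647 and -0.686 with the highest group mean (chosen after seeing the data), to -0.585 and -0.617 with each array centred on the other autosomes, to -0.575 and -0.597 with the mean of all probe sets, and to -0.615 and -0.572 with quantile normalization. Leaving out 1 array gave -0.759 to -0.687 and -0.818 to -0.705. The cause of these moves was not tested. The count of bright genes at least 2-fold lower (111) was 63 with the mean of all probe sets.

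The count of genes called between the arrays titled iPS and brain NSC (11) was 3 with genes under 7 left out, fewer being tested, 7 with the mean of all probe sets, 6 with limma's treat against 1.5-fold, and 9 to 12 with 1 array left out. The relative chromosome median of this comparison kept its sign in all 21 alternatives (-0.0602 to -0.0166). In the 13 that keep these 7 arrays unpaired the exact p stayed over 0.05, and the other 8, with 1 of the 7 left out or with pairs, are too small to reach it. Ptprg, Selenok, Spata13, 3830406C13Rik and Il17d fell under 2-fold with the mean of all probe sets, and Ptprg also without brain NSC replicate 3. Without _x_at and _s_at probe sets Ptprg (0.56), Selenok (-0.777) and Il17d (0.0052) were not called, and Cadps had no value.

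With the replicate number as a block, the median against brain NSC was -0.745 and Otx2 stood at 0.907. Same-numbered arrays titled iPS and brain NSC had correlations of their deviations of 0.133, -0.145 and 0.0841. So few values cannot settle whether same-numbered arrays share a culture or a batch. The main fit used no pairing.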
